A study of Mus musculus with 30 samples.

Results

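Dbp, Tef and Hlf encode the 3 transcription factors of the PAR-bZIP family, and Nfil3 (also called E4bp4) encodes a bZIP repressor that binds the same DNA element. All probes that the array files name for these 4 genes were taken, which gave 8 of the 41174 probes that are not controls: 1 for Dbp, 4 for Tef, 1 for Hlf and 2 for Nfil3. Hypothalamic blocks came from 8 wild-type (WT) and 8 Per3-/- mice and whole eyes from 7 WT and 7 Per3-/- mice, which gave 30 arrays, each of a single mouse and tissue. Every mouse was an adult male. Knockout and WT mice were littermates of a C57Bl/6J background, and the Per3 deletion was in the germline, not limited to chosen cells. All groups shared an ultradian schedule of 3.5 h light and 3.5 h dark, and tissue was collected in the light of cycle 17. There was therefore 1 sampling time, and a level measured here cannot be told apart from a phase. The comparison asked what loss of Per3, a period gene of the circadian clock, does to these clock outputs. Eye and hypothalamus arrays of the same genotype and replicate number were taken as 1 mouse, which the labels do not state. Eye arrays of WT mouse 2 and Per3-/- mouse 1 were not analysed here, so 14 mice had both tissues by this matching.

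PAR-bZIP factors are named for a region rich in proline and acidic amino acids next to the basic leucine zipper (bZIP) domain, and they activate genes through the D-box. Dbp is an output of the clock: the CLOCK and BMAL1 activators drive it through E-boxes, and its RNA has one of the strongest daily rhythms known. NFIL3 represses at D-boxes, and its gene is controlled through elements bound by the REV-ERB repressors and the ROR activators, so that its RNA runs out of phase with that of Dbp. Tef and Hlf have weaker rhythms in most brain tissue, and mice that lack all 3 PAR-bZIP factors have seizures, which have been tied to low expression of Pdxk, the pyridoxal kinase of the brain.

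The sequences before the start sites are shown because the 4 genes are known for control through different clock elements. RefSeq gives 1 start site for Dbp, Hlf and Nfil3 and 2 for Tef, and the 250 bases before each are given 5′ to 3′ on the strand of the gene, on GRCm38.p6. Capitals mark matches to the E-box CACGTG, the D-box as TTATGTAA or TTACGTAA, the core of the ROR element, AGGTCA, and the cAMP response element TGACGTCA, each searched on both strands, with no match overlapping another.
Dbp, chr7:45704997-45705246, plus strand: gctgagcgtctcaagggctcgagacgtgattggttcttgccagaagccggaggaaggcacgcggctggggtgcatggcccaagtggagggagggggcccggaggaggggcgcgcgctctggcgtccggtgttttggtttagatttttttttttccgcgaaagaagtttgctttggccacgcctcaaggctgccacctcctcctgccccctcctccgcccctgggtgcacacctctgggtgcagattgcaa
Tef, first start site, chr15:81802423-81802672, plus strand: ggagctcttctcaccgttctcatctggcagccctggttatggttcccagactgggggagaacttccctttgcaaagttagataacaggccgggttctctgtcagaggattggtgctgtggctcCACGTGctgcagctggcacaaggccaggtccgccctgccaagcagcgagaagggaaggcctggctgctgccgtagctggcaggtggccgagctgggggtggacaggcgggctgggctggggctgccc
Tef, other start site, chr15:81811164-81811413, plus strand: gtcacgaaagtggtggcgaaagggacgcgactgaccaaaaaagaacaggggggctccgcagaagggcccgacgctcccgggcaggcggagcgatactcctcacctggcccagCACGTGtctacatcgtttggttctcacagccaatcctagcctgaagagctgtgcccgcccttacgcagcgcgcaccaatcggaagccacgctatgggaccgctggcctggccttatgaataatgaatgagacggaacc
Hlf, chr11:90390918-90391167, minus strand: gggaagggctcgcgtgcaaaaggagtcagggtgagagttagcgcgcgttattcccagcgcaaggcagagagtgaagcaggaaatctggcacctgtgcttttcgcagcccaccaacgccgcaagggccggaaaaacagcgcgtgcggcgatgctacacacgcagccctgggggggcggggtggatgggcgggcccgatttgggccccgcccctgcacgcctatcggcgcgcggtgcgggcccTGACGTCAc
Nfil3, chr13:52981040-52981289, minus strand: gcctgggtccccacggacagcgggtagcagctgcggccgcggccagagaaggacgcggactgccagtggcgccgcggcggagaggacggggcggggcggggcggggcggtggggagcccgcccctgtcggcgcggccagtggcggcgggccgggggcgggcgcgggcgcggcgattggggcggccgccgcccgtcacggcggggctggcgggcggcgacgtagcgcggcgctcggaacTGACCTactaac

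Both Tef windows held 1 E-box, which began 127 and 138 bases before the start site. The Nfil3 window held 1 ROR element core, read on the other strand as TGACCT and beginning 12 bases before the start site, and the Hlf window held 1 cAMP response element, beginning 9 bases before it. The Dbp window held no match to any of them. Among the 32851 windows of the same length in the RefSeq table, 6.02% held the E-box, 4607 windows the ROR element core, 1.55% the cAMP response element, and 0.819% and 0.113% the D-box with T and with C. None of the 5 windows held a D-box. A match describes the letters and not a bound site.

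Positions of the probes are those in the hypothalamus array files, on mm9. The Dbp probe (A_51_P180492) lies at chr7:52965265-52965324 and the Hlf probe (A_51_P134228) at chr11:90199978-90200037. The Nfil3 probes lie at chr13:53062585-53062644 (A_52_P500027) and chr13:53062869-53062928 (A_51_P111492), the first nearer the 3′ end of the gene, which is on the minus strand. The Tef probes, on the plus strand, lie in the order A_52_P658073 (chr15:81646554-81646613, designed on a cDNA clone), A_52_P173309 (chr15:81651816-81653921), A_51_P450561 (chr15:81654218-81654277) and A_52_P485573 (chr15:81656928-81656987). A_52_P173309 is the 1 probe that spans more than its own 60 bases, so it joins 2 exons, and its sequence is shown because it reads spliced Tef RNA.
Tef, A_52_P173309: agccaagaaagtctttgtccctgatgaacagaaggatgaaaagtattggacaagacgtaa

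The 75th percentile of intensity ranged from 1408 to 2207 on hypothalamus arrays and from 1133 to 1644 on eye arrays, and 67.9% to 75.6% and 71.4% to 80.7% of probes were well above background. All 8 member probes were well above background on all 30 arrays, and none was marked there as saturated or flagged. The Dbp probe was bright, with a median intensity of 52968 in WT and 45897 in Per3-/- hypothalamus. In the eye these were 45019 and 33359. Whether its signal stayed proportional to RNA at this brightness was not tested. The Per3 probe read -3.79, -3.45 and -3.28 (lowest, median, highest) in WT hypothalamus and -4.21, -3.99 and -3.59 in Per3-/- hypothalamus, so the genotypes overlapped. Its difference was -0.51 in the hypothalamus (SE 0.089, adjusted p = 0.066, limma) and -0.45 in the eye (SE 0.23, adjusted p = 0.99993), and whether the probe lies in the deleted part was not known here. The tissue labels were checked with marker lists. Each of the 6 hypothalamic markers was well above background on every hypothalamus array, and their summed level was 7.11 to 7.54 on the log2 scale there against -0.52 to 0.068 in the eye. The retina, lens and cornea lists were at 8.19 to 8.57, 9.08 to 9.56 and 8.70 to 9.25 in the eye, and every one of their genes was well above background on every eye array. The summed level of 5 pituitary genes varied widely between hypothalamic blocks, from -0.062 to 5.36 in WT and from -0.24 to 9.62 in Per3-/-. That of 4 choroid plexus genes ran from 1.15 to 3.95 in WT and from 0.94 to 4.27 in Per3-/- blocks, and from 4.38 to 4.67 in the eye. In the eye 4 skeletal muscle genes ran from 7.01 to 8.46. The part of this variation in the results was not tested. In whole tissue, fewer cells of a type and less RNA per cell cannot be told apart.

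No member differed between genotypes at an adjusted p under 0.05 in either tissue, where 0.0413% of all probes did in the hypothalamus and 0.0194% in the eye. For Dbp the Per3-/- mean stood at -16.2% from WT in the hypothalamus and at -20.9% in the eye. Both Nfil3 probes lay on the other side of 0, at 10.9% and 11.4% from WT in the hypothalamus and at 17.3% and 22.7% in the eye. Tef and Hlf differed by less in their main probes. At an unadjusted p under 0.05 stood 1 member probe in the hypothalamus (Dbp; 2.82% of all probes) and 3 in the eye (Dbp and both of Nfil3; 1.8% of all probes). Values below are log2 signals relative to the 75th percentile of the array, and are not compared between probes.

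**Figure D1:**
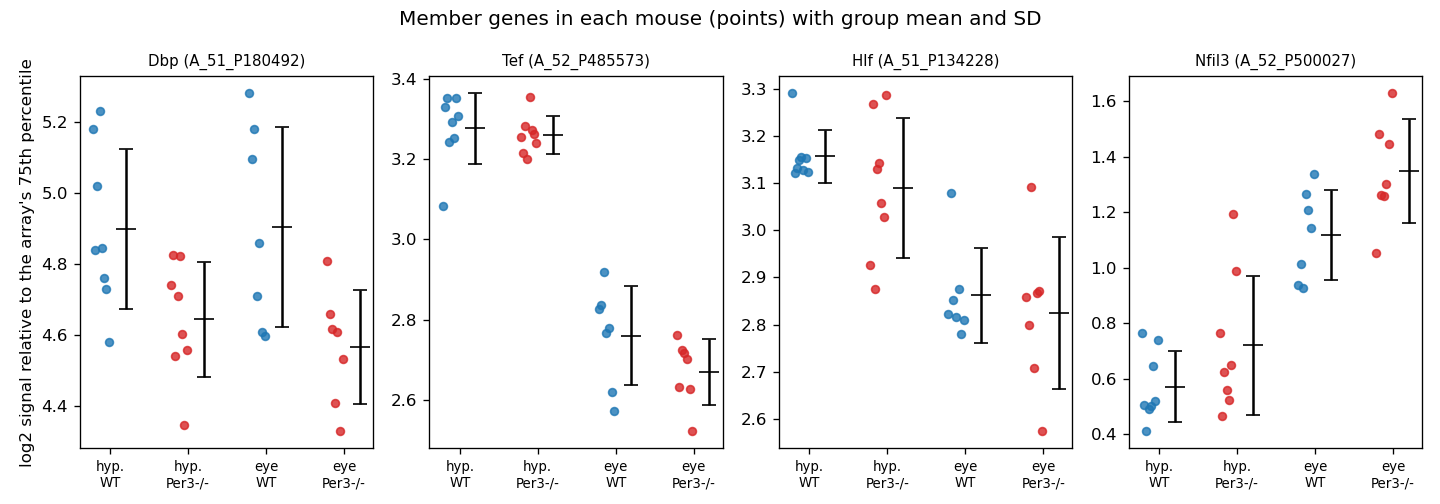
Log2 signal of the main probe of each gene relative to the 75th percentile of its array (y axis) in every mouse (points), by tissue and genotype (x axis; hyp., hypothalamus), with the group mean and SD. Dbp points are lower and Nfil3 points higher in Per3-/- with overlap in both tissues, Tef and Hlf are lower in the eye, and Nfil3 is higher there. The y axes differ between genes and do not start at 0.

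The Dbp probe gave a lowest, median and highest value of 4.58, 4.84 and 5.23 in WT hypothalamus and 4.35, 4.66 and 4.83 in Per3-/- hypothalamus. In the eye these were 4.60, 4.86 and 5.28 in WT and 4.33, 4.61 and 4.81 in Per3-/-. In each tissue 3 Per3-/- mice were below every WT mouse, and the groups overlapped. The log2 difference, Per3-/- minus WT, was -0.25 in the hypothalamus (SE 0.096, adjusted p = 0.99, limma) and -0.34 in the eye (SE 0.12, adjusted p = 0.99993). Two-sided exact permutation tests over the mice gave p = 0.022 and p = 0.020.

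Each tissue took 4 slides that carried both genotypes, and slides follow the mouse numbers, so that slide and mouse number cannot be told apart. Mean Dbp was lower on the later slides: 4.90, 4.88, 4.76 and 4.56 on slides 1 to 4 in the hypothalamus and 5.05, 4.89, 4.65 and 4.52 in the eye. Within slides the genotype difference lay between -0.50 and -0.090 for hypothalamus and between -0.50 and -0.17 for eye, with Per3-/- lower on 4 of 4 slides in each. On each eye slide every Per3-/- mouse was below every WT mouse, which 0.141% of all probes showed, while in the hypothalamus Dbp was not among the 0.0874% that did so. With the labels permuted within slides, the exact test gave p = 0.0077 in the hypothalamus and p = 0.0046 in the eye, the latter the smallest that its 432 arrangements allow. With slide as a block in limma, Dbp had an unadjusted p of 0.0048 in the hypothalamus and 6.0e-04 in the eye, and adjusted values of 0.96 and 0.93, in fits that called 0.034% and 0.0219% of all probes and no member.

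**Figure D2:**
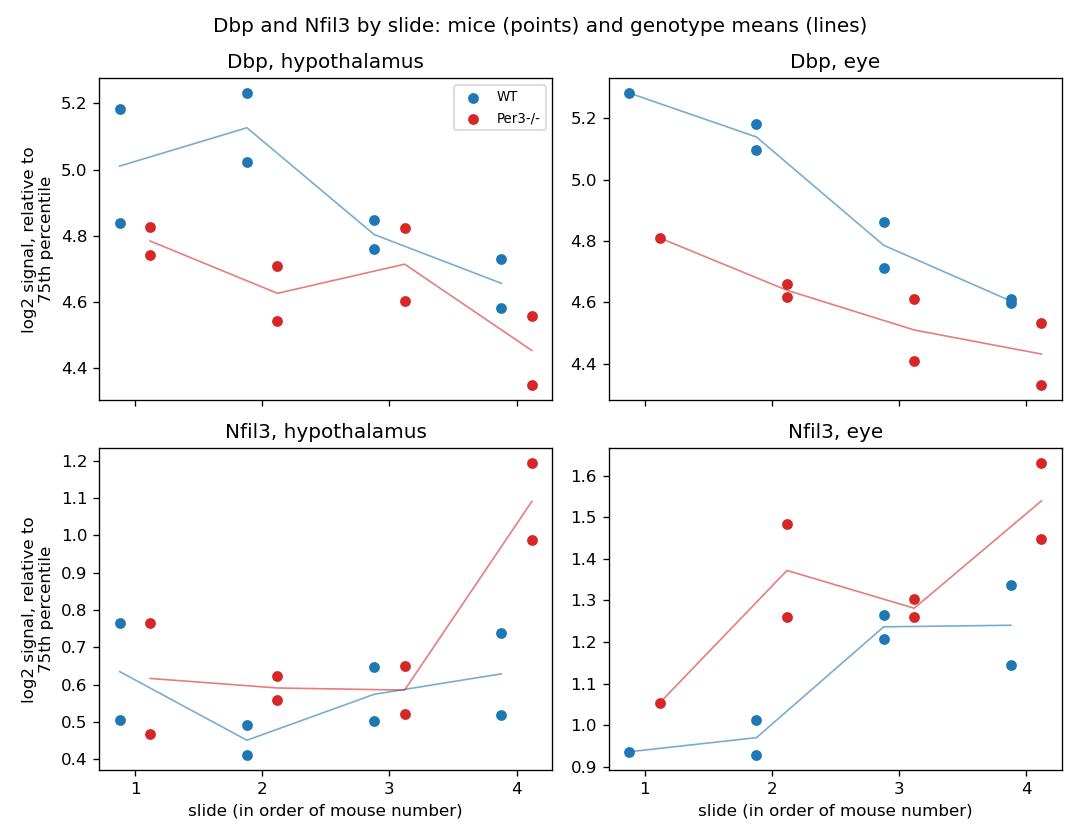
Log2 signal of Dbp and of the Nfil3 main probe A_52_P500027 relative to the 75th percentile (y axis) by slide (x axis) in hypothalamus and eye, with mice as points and genotype means as lines. The Dbp line of Per3-/- lies below that of WT on all 4 slides in both tissues, and the Nfil3 line of Per3-/- lies above that of WT on all 4 eye slides. The y axes do not start at 0.

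The 2 tissues of a mouse were also averaged, in an added fit of the 30 arrays in which each mouse was a random block. The mean Dbp difference was -0.30 (SE 0.078, adjusted p = 0.63, limma), where 0.0583% of all probes were called. With slide as a fixed block the difference was also -0.30 (SE 0.052, adjusted p = 0.017, limma). Dbp then had rank 26 of 41174 by p, and 0.0753% of all probes were called. Both fits used 1 mouse correlation for all probes, 0.059 and with slide 0.053. For Dbp itself r between the tissues of a mouse was 0.81, and 0.42 with slide means removed. The SE and the adjusted p of Dbp can therefore be too small in these fits. The call of Dbp rested on nearly the full set of mice. With 1 mouse left out at a time the difference stayed between -0.33 and -0.26, and the adjusted p ran from 0.0096 to 0.11. It was called in 8 of 16 such fits and not called without WT mouse 1, 3, 4 or 7 or Per3-/- mouse 2, 3, 4 or 7, where the adjusted p was 0.11, 0.086, 0.062, 0.051, 0.083, 0.075, 0.087 and 0.080. The genotype differences of Dbp in the 2 tissues did not differ by the test of that difference (-0.08 eye minus hypothalamus, SE 0.15, adjusted p = 0.99985). None of the 8 member probes was called there, and 0 had an unadjusted p under 0.05, against 0.00486% and 2.21% of all probes.

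Nfil3 main probe A_52_P500027 gave 0.41, 0.51 and 0.76 in WT hypothalamus and 0.47, 0.64 and 1.19 in Per3-/- hypothalamus (lowest, median, highest). In the eye it gave 0.93, 1.14 and 1.34 in WT and 1.05, 1.30 and 1.63 in Per3-/-. The groups overlapped, with 3 Per3-/- mice above every WT mouse in each tissue. The log2 difference was 0.15 in the hypothalamus (SE 0.097, adjusted p = 0.99, limma) and 0.23 in the eye (SE 0.096, adjusted p = 0.99993). The exact test within slides gave p = 0.094 and p = 0.0093. In the hypothalamus the highest mean was that of slide 4 (0.86, against 0.52 to 0.63 on the others), and in the eye the slide means were 0.995, 1.17, 1.26 and 1.39.

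The second Nfil3 probe, A_51_P111492, gave -0.28, -0.17 and 0.16 in WT hypothalamus and -0.23, -0.054 and 0.51 in Per3-/- hypothalamus. In the eye it gave -0.50, -0.0068 and 0.062 in WT and -0.056, 0.24 and 0.32 in Per3-/-, with 5 of 7 Per3-/- mice above every WT mouse. Its difference was 0.16 in the hypothalamus (SE 0.095, adjusted p = 0.99, limma) and 0.30 in the eye (SE 0.10, adjusted p = 0.99993), with exact p-values within slides of 0.040 and 0.014. The 2 Nfil3 probes followed each other across mice (r = 0.81 over 16 hypothalami and 0.83 over 14 eyes, deviations from genotype means), as a description, since they read 1 RNA in the same libraries. In the mean of both tissues with slide as a block, A_51_P111492 was at 0.23 (SE 0.054, adjusted p = 0.34, limma) and A_52_P500027 at 0.19 (SE 0.056, adjusted p = 0.94).

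Tef main probe A_52_P485573 gave 3.08, 3.30 and 3.35 in WT and 3.20, 3.26 and 3.36 in Per3-/- hypothalamus. In the eye the values were 2.57, 2.78 and 2.92 in WT and 2.52, 2.70 and 2.76 in Per3-/-. The groups lay almost on top of each other in the hypothalamus (difference -0.02, SE 0.042, adjusted p = 0.99, limma) and overlapped in the eye (-0.09, SE 0.066, adjusted p = 0.99993). All 4 eye slides had a lower Per3-/- mean, with an exact p within slides of 0.019, not adjusted for the number of probes. With slide as a block, limma gave an unadjusted p of 0.11 for it in the eye. The other 3 Tef probes had differences of -0.11 to -0.05 in the hypothalamus and -0.31 to -0.09 in the eye, and none had an unadjusted p under 0.05. The dimmest of them, A_52_P658073, held the largest of these in both tissues and an SD between mice of 0.38 to 0.39 in the eye.

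Hlf gave 3.12, 3.14 and 3.29 in WT hypothalamus and 2.88, 3.10 and 3.29 in Per3-/- hypothalamus. In the eye it gave 2.78, 2.82 and 3.08 in WT and 2.57, 2.86 and 3.09 in Per3-/-. The groups overlapped, with 4 Per3-/- hypothalami below every WT one and 2 Per3-/- eyes below and 1 above every WT one. The difference was -0.07 in the hypothalamus (SE 0.058, adjusted p = 0.99, limma) and -0.04 in the eye (SE 0.078, adjusted p = 0.99993).

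**Figure D3:**
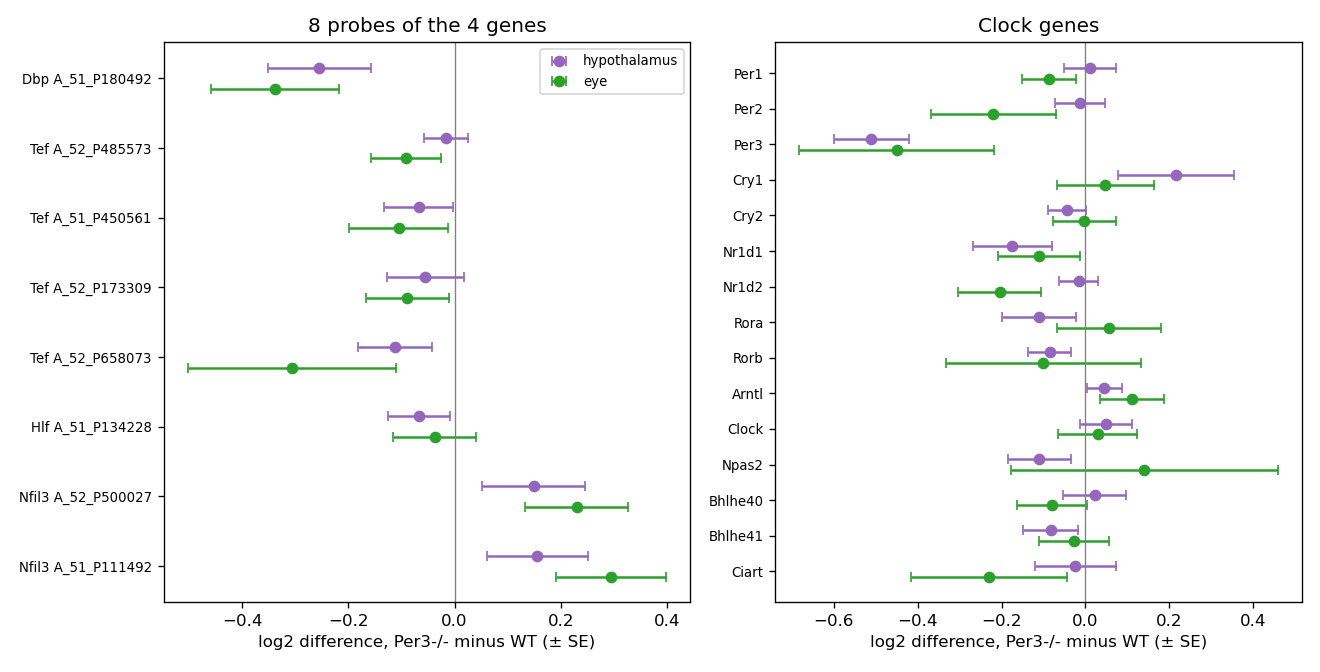
Log2 difference between genotypes, Per3-/- minus WT (x axis), with its SE (bars) for the 8 probes of the 4 genes (left) and the clock genes reported here (right) in hypothalamus and eye. Dbp sits at -0.25 and -0.34 and both Nfil3 probes above 0 in both tissues, while the Per3 points are the lowest of the clock genes.

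The genes around these factors gave no call between genotypes. All 16 clock genes had a probe, 0 were called in either tissue, and their median difference was -0.02 in the hypothalamus (all probes -0.01) and -0.05 in the eye (all probes 0.00). At an unadjusted p under 0.05 stood 1 of them, Per3 itself in the hypothalamus, and 0 in the eye. Of 10 genes known as targets of PAR-bZIP factors or NFIL3 in liver, brain or pituitary, 0 were called and 0 reached an unadjusted p under 0.05. Their medians were -0.04 and -0.08. These counts and medians include genes that were not detected: Cyp2b10 and Cyp7a1 were well above background on 0 hypothalamus arrays, and Tshb on 0 eye arrays. Cyp7a1 was so on 9 eye arrays. A lack of response cannot be read from these genes there. Pdxk differed by -0.06 (SE 0.034) in the hypothalamus and -0.09 (SE 0.10) in the eye. Of 6 genes of the C/EBP family, bZIP factors that bind related sites, 5 had a probe and 0 were called, with medians of 0.04 and 0.02. Cebpd was at 0.50 in the hypothalamus (SE 0.16, adjusted p = 0.99, limma) and at 0.02 in the eye.

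Between tissues, the 4 genes had different patterns in WT mice. The tissues were on separate slides and were scanned and extracted separately. A tissue difference therefore cannot be told apart from a difference between these runs. Tef was lower in the eye by 2 of its probes, Hlf was lower in the eye, Nfil3 was higher in the eye by 1 of its 2 probes, and Dbp was at nearly the same relative level. In all, 4 of 8 member probes were called at an adjusted p under 0.05, 1 higher and 3 lower in the eye, where 75.6% of all probes were called, 42.1% higher and 33.6% lower. The share is below that of all probes. The median of all probes was itself shifted by 0.16 towards the eye, and scaled to the array median it was shifted by -0.27.

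**Figure D4:**
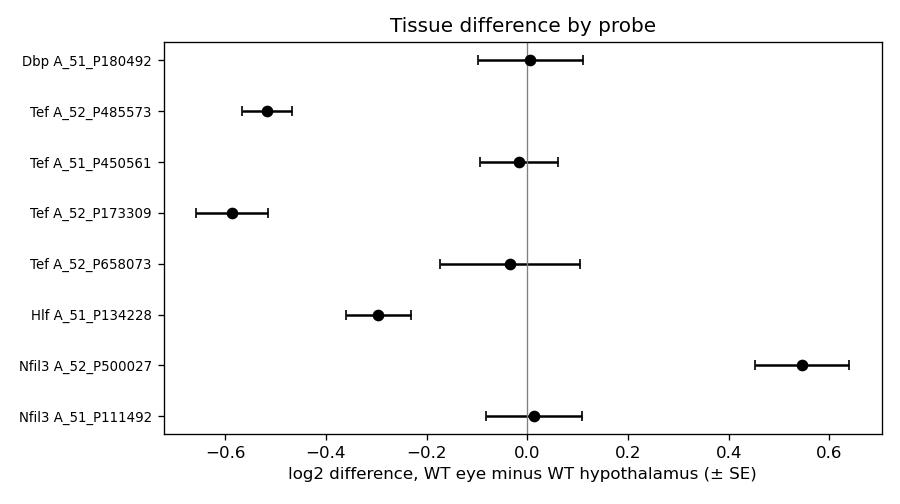
Log2 difference between WT eye and WT hypothalamus (x axis, ± SE) for the 8 probes. A_52_P485573 and A_52_P173309 of Tef sit at -0.52 and -0.59 and the other Tef probes near 0, while the 2 Nfil3 probes sit at 0.55 and 0.01.

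The WT Tef values of the main probe, given above, did not overlap between tissues, with the lowest hypothalamus at 3.08 and the highest eye at 2.92. The difference was -0.52 (SE 0.050, adjusted p = 1.3e-10, limma), and relative to the median of all probes -0.67. The exon-joining probe A_52_P173309 gave -0.59 (SE 0.072, adjusted p = 1.7e-08), with -2.44 to -1.95 in WT hypothalamus and -2.96 to -2.50 in WT eye. The other Tef probes gave -0.02 (SE 0.077) and -0.03 (SE 0.14) and were not called, but with quantile normalization they stood at -0.31 and -0.65 (adjusted p = 0.0020 and 0.0044, limma) and with the array median at -0.44 and -0.46, also called. Across mice the main probe and A_52_P173309 had r = 0.71 in the eye and -0.25 in the hypothalamus, A_52_P658073 had r = 0.89 and -0.060 with it, and A_51_P450561 had r = 0.18 and -0.10. Among the other 3 probes r ran from -0.036 to 0.61 in the eye and from 0.14 to 0.44 in the hypothalamus.

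Hlf differed by -0.30 in the eye (SE 0.065, adjusted p = 1.6e-04, limma), with WT values that did not overlap (highest eye 3.08, lowest hypothalamus 3.12), and by -0.13 with quantile normalization (adjusted p = 0.062). Nfil3 A_52_P500027 was higher in the eye by 0.55 (SE 0.094, adjusted p = 5.7e-06), also without overlap, and by 0.12 with the array median as the scale (adjusted p = 0.23), while A_51_P111492 differed by 0.01 (SE 0.096, adjusted p = 0.91). The pair of Nfil3 probes thus disagreed between tissues although they followed each other between mice. Dbp differed by 0.01 (SE 0.10, adjusted p = 0.96), a value that was -0.42 with the array median as the scale and 0.14 with quantile normalization, so no direction is given for it. The levels of different genes were not set against each other.

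Of 16 clock genes 10 were higher and 4 lower in the WT eye, a split that was 6 and 5 with the array median as the scale. Of all probes 42.1% were higher and 33.6% lower, and with the array median 30.8% and 46.9%. Among the highest differences were those of Cry1 (1.46) and Clock (1.42), a repressor and an activator of the clock. The lowest were those of Rorb (-0.89) and Rora (-0.72), and of Npas2, a relative of Clock, whose measured difference (-1.12) rests on a probe well above background on 9 of 14 eye arrays. Of the 10 target genes 7 were higher and 3 lower, also with the array median. The higher ones include Cyp2b10 and Cyp7a1, which were well above background on 0 hypothalamus arrays. Cyp2a5 and Cyp2a4, cytochrome P450 genes whose near-identical sequences make their separate values uncertain, were at 6.55 and 6.25, and Nr1i3, the xenobiotic receptor CAR, was at 1.45. The lowest were Alas1, the first enzyme of haem synthesis (-0.84), Pdxk (-1.17), and Tshb, the thyrotropin subunit for which TEF was first described. In the eye Tshb was well above background on 0 arrays, and it was at least 4.50-fold higher in the hypothalamic block (measured means -4.17 and -8.03, adjusted p = 7.5e-05, limma). Tshb belongs to the pituitary genes whose summed level varied widely between hypothalamic blocks, as given above. All 5 C/EBP genes were higher in the eye (4 with the array median), from Ddit3 (0.56) and Cebpg (1.13) to Cebpa (1.43), Cebpd (2.40) and Cebpb (2.60).

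The spread between mice differed by gene and by probe. With the genotype mean removed, the SD across mice was 0.20 for Dbp in the hypothalamus and 0.23 in the eye, which placed it at percentiles 75.3 and 64.7 among the 27164 and 27927 probes that were well above background throughout the tissue. For Nfil3 A_52_P500027 it was 0.20 and 0.18 (percentiles 75.7 and 47.0), for Hlf 0.11 and 0.13 (38.5 and 25.4), and for the Tef main probe 0.071 and 0.11 (9.55 and 10.68). The Tef probe A_52_P658073 had 0.14 and 0.39 (52.8 and 85.0). With slide means also removed, the SD of Dbp in the eye was 0.12 and that of Tef 0.060, at percentiles 21.7 and 0.938.

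Covariation was computed on deviations from genotype means, over 6 pairs of genes in each tissue, with permutation within genotypes and adjustment over the 12 relations. Only the main probe of each gene was used, here and in the relations that follow. In the hypothalamus no other Tef probe followed the main one (r = -0.25, -0.10 and -0.060), so hypothalamic relations of Tef are those of 1 probe. In the eye 3 pairs were correlated and in the hypothalamus none. Tef and Nfil3 opposed each other in the eye (r = -0.82, permutation p = 2.9e-04, adjusted p = 0.0035; rho = -0.92, permutation p = 3.0e-05, adjusted p = 3.6e-04), in WT (-0.77) and in Per3-/- mice (-0.96). Without the 2 mice farthest from the median of Tef, r was -0.71. With slide means removed r was -0.73, with an exact permutation p of 0.016, the smallest that 64 arrangements allow, and an adjusted p of 0.094. The relation depended on the scale of the arrays: r was -0.77 with quantile normalization (adjusted p = 0.012), -0.30 with normexp (adjusted p = 0.44) and -0.064 with the array median (adjusted p = 0.99), all by permutation.

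Dbp followed Tef across eyes (r = 0.74, permutation p = 0.0073, adjusted p = 0.034; rho = 0.81, permutation p = 0.0020, adjusted p = 0.012) and was opposed to Nfil3 (r = -0.69, permutation p = 0.0085, adjusted p = 0.034; rho = -0.70, permutation p = 0.010, adjusted p = 0.041). Without the 2 farthest mice these were 0.68 and -0.58. With the array median r was 0.90 for Dbp and Tef and -0.059 for Dbp and Nfil3, and with normexp 0.74 and -0.31, so the opposition of Dbp and Nfil3 also depended on the scale. Within slides r was 0.30 (exact permutation p = 0.72) and -0.01 (exact permutation p = 0.91). Neither was resolved there, and 64 arrangements are too few to show that a relation is absent. The mean of Dbp was lower and that of Nfil3 higher on the later eye slides, as given above.

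In the hypothalamus Dbp and Nfil3 gave r = -0.50 (permutation p = 0.033, adjusted p = 0.098; rho = -0.54, permutation p = 0.022, adjusted p = 0.064), with -0.19 in WT and -0.83 in Per3-/- mice, a difference that was not tested, and -0.12 with slide means removed. Tef and Hlf gave r = -0.40 (permutation p = 0.042, adjusted p = 0.10; rho = -0.33, permutation p = 0.20, adjusted p = 0.26). Dbp and Hlf gave r = 0.33 (permutation p = 0.16, adjusted p = 0.24; rho = 0.46, permutation p = 0.060, adjusted p = 0.13), and 0.66 with slide means removed (exact permutation p = 0.0039, adjusted p = 0.047). The other 3 hypothalamic pairs had r from -0.39 to 0.0095.

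**Figure D5:**
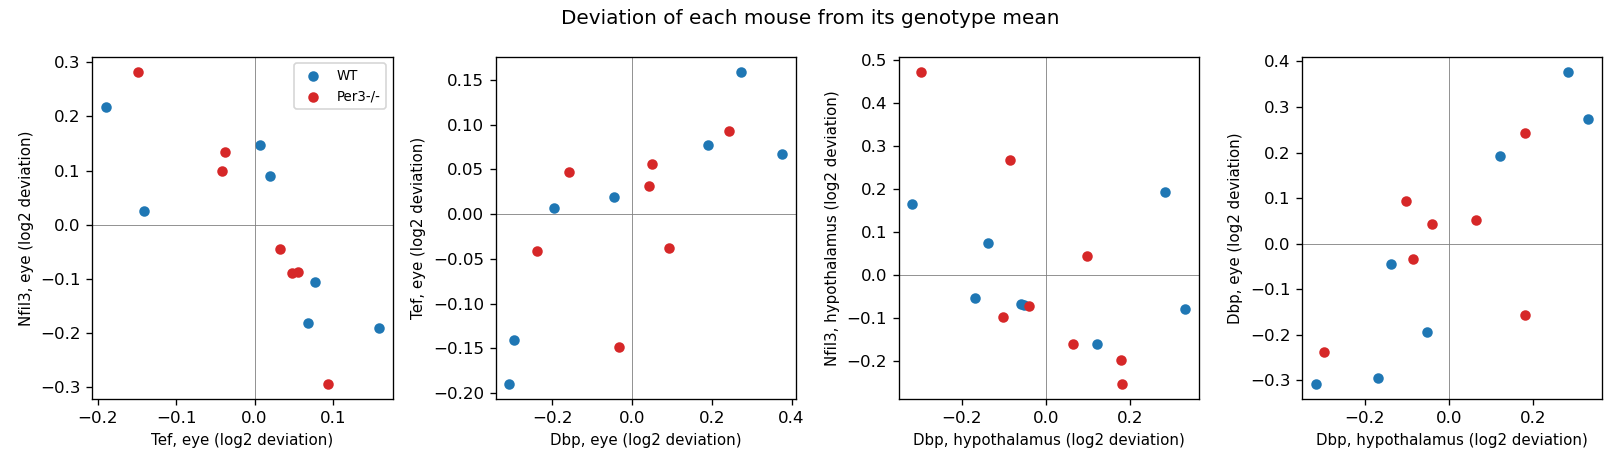
Deviation of each mouse from its genotype mean, in log2 units on both axes, for Tef and Nfil3 in the eye (r = -0.82), Dbp and Tef in the eye (r = 0.74), Dbp and Nfil3 in the hypothalamus (r = -0.50) and Dbp in the 2 tissues of the same mouse (r = 0.81). Points are mice, coloured by genotype, and tissues were matched by replicate number.

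Dbp in the eye followed Dbp in the hypothalamus of the same genotype and replicate number, taken here as the same mouse. Over 14 mice r was 0.81 (permutation p = 0.0028, adjusted over 4 genes 0.011; rho = 0.82, permutation p = 0.0025, adjusted p = 0.0099), with 0.94 in WT and 0.49 in Per3-/- mice. Without the 2 farthest mice r was 0.69. With slide means removed it was 0.42 (exact permutation p = 0.53), and 64 arrangements are too few to decide whether a relation remained within slides. Nfil3 gave r = 0.55 (permutation p = 0.062, adjusted p = 0.12; rho = 0.57, permutation p = 0.038, adjusted p = 0.076), Tef -0.32 and Hlf -0.27.

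Of 128 relations between the 4 genes and the 16 clock genes, 6 had an adjusted p under 0.05, 2 in the hypothalamus and 4 in the eye. In the hypothalamus Dbp followed Bhlhe41, the clock repressor DEC2 (r = 0.88, permutation p = 4.0e-05, adjusted p = 0.0051; rho = 0.90, permutation p = 1.0e-05, the smallest 100000 resamples can give, adjusted p = 0.0013). It was 0.89 in WT and 0.88 in Per3-/- mice, 0.85 without the 2 farthest and 0.80 with slide means removed (exact permutation p = 0.016, adjusted p = 0.625). Dbp was opposed to Cry1, the repressor of CLOCK and BMAL1 (r = -0.69, permutation p = 0.0022, adjusted p = 0.046; rho = -0.65, permutation p = 0.0071, adjusted p = 0.090), with -0.66 without the 2 farthest and -0.50 within slides (exact permutation p = 0.21).

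In the eye Dbp followed Ciart, the clock repressor CHRONO (r = 0.89, permutation p = 2.2e-04, adjusted p = 0.0094; rho = 0.89, permutation p = 3.0e-04, adjusted p = 0.019), with 0.83 without the 2 farthest and 0.69 within slides (exact permutation p = 0.17) and 0.52 with normexp (permutation, adjusted p = 0.30). Hlf followed Nr1d1, which encodes REV-ERB alpha (r = 0.84, permutation p = 2.0e-04, adjusted p = 0.0094; rho = 0.81, permutation p = 9.9e-04, adjusted p = 0.042), with 0.71 without the 2 farthest, 0.76 within slides (exact permutation p = 0.16) and 0.28 with normexp (permutation, adjusted p = 0.73). Tef was opposed to Per3 (r = -0.75, permutation p = 0.0014, adjusted p = 0.035; rho = -0.70, permutation p = 0.0059, adjusted p = 0.084) and to Npas2 (r = -0.82, permutation p = 0.0012, adjusted p = 0.035; rho = -0.74, permutation p = 0.0058, adjusted p = 0.084). Without the 2 farthest these were -0.65 and -0.71, and within slides 0.20 and -0.21 (exact permutation p = 0.66 and 0.48), and the Npas2 probe was well above background on 9 of 14 eye arrays. Dbp with Bhlhe41 in the eye had r = 0.14, and Dbp with Ciart in the hypothalamus -0.23.

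For each gene the 5 genes with the most similar pattern across mice were named by the lower of the Pearson r in the 2 tissues, over 16 and 14 mice and 17019 genes, as a description. For Dbp they were Acsf3 (r = 0.92 in the hypothalamus, 0.87 in the eye), Odf2, Cstf1, N6amt1 and Tspan4, with a lower r of 0.79 or more. For the Tef main probe, which no other Tef probe followed in the hypothalamus, they were Exd2 (0.90, 0.86), Borcs5, Atp6v1b2, Paip1 and Stx3, with 0.71 or more. For Hlf they were Snrpn (0.73, 0.75), Tgs1, Spock2, Gabrb2 and Ttll5, with 0.64 or more. For Nfil3 they were Pparg (0.76, 0.80), Cbfb, Klhl30, Rbm12b2 and Irs1, with 0.69 or more. With slide means removed the leading genes had r = 0.87 and 0.65 (Acsf3), 0.92 and 0.79 (Exd2), 0.86 and 0.66 (Snrpn) and 0.65 and 0.65 (Pparg). Others were lower in the eye, among them Borcs5 (0.19) and Odf2 (0.41). Points in these relations share the scaling of each array and, in part, its slide. None of the 4 genes was among the 5 most like another of them.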

How the data were processed

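RNA of 30 samples was hybridised to 1-colour Agilent arrays of 60-mer probes. The authors extracted spot intensity with Feature Extraction 10.7.1.1. Per the file headers these intensities had their background subtracted and were left linear, with no scaling across arrays. A table of log2 values deposited by the authors was scaled to the 75th percentile and had each probe's median within the tissue removed. Of these, 99.9% in the eye and 99.97% in the hypothalamus lay within 0.01 of the values computed here. The eye files name assembly mm8 and hold no positions, and those of the hypothalamus mm9.

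Processed intensities of 41174 probes were log2-transformed and expressed relative to the 75th percentile. Uneven and outlier spots were omitted. The main probe of a gene was that of highest mean signal. Gene names came from the accession (26910 probes), symbol (5088) or synonym (816) in RefSeq, otherwise from the files (8360). Promoters came from RefSeq (GRCm38.p6), where 4 of 4 genes matched.

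Genotypes were compared within a tissue by limma 3.58.1 in R 4.3.3, with Benjamini-Hochberg adjustment over all probes. Both tissues were fitted together, mouse (genotype and replicate number) being a random block with correlation 0.059. Single probes were tested by two-sided exact permutation, over 12870 arrangements in the hypothalamus and 3432 in the eye, and within slides over 1296 and 432. Correlations used 100000 resamples within genotypes, and with slide means removed 256 and 64 arrangements. Python 3.11.15, numpy 2.4.6, pandas 2.3.3, scipy 1.17.1 and matplotlib 3.10.9 were used, and the statistics were tested on simulated data. Precision is limited by the number of arrays.

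The replicate numbers were checked as pairs. Deviations of same-numbered WT and Per3-/- mice correlated at 0.11 to 0.63 over 6 pairs in the eye and at -0.029 to 0.32 over 8 in the hypothalamus. By the criterion that every pair exceeds 0.1, the eye numbers passed and the hypothalamus numbers did not. Same-numbered mice shared a slide and were not compared with differently numbered ones. The check therefore cannot tell a pairing of mice from a shared slide, and the labels state no pairing. The alternatives tried were other normalizations, background corrections, filters, blocks and tests, and each mouse left out. The mean of both tissues, the slide block across tissues and the permutation within slides were chosen after seeing the data. The genes and lists were chosen with earlier results of these data known. Named genes were all member probes, and in each list the genes called between genotypes and the 3 highest and 3 lowest tissue differences among probes that were well above background throughout a tissue. Also named were clock relations at an adjusted p under 0.05, the 5 genes most like each member, and target genes not detected in a tissue. A clock gene that this rule names is not reported here.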

Additional observations from a re-analysis of the deposited data

Results flagged for a closer look

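Among 32 groups of a probe, tissue and genotype, 4 had a mouse that stood apart from the others by Dixon's ratio of gap to range. About 1 group in 20 is expected to do so by chance. In WT hypothalamus, mouse 1 had the lowest Tef value of A_52_P485573 (3.08, the next 3.25, ratio 0.60) and the highest Hlf value (3.29, the next 3.16, ratio 0.80). In WT eye, mouse 3 had the highest Hlf value (3.08, the next 2.88, ratio 0.68). In WT hypothalamus, mouse 8 had the highest value of Nfil3 A_51_P111492 (0.16, the next -0.13, ratio 0.66). No Dbp group held such a mouse. The WT hypothalamus correlation of Tef and Hlf of -0.88 includes mouse 1, at opposite ends of both, while in Per3-/- mice r was -0.29.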

How the results depend on the processing

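The count of member probes called between genotypes was 0 in both tissues under every alternative tried: quantile normalization, normexp, the array median, the filter on dim probes, kept spots, the slide block, the replicate block, the log2 values of the authors, the methods' t-test and each mouse left out (range 0 to 0). The genotype differences of the 4 main probes kept their direction under the other settings with all mice, the t-test aside, Dbp within -0.27 to -0.23 for hypothalamus and -0.41 to -0.32 for eye. With each mouse left out Dbp lay within -0.30 to -0.21 and -0.39 to -0.28, and Hlf in the eye, at -0.04, turned to 0.0045 without Per3-/- mouse 8. With the replicate block Dbp was at -0.25 (adjusted p = 0.96, limma) in the hypothalamus and -0.32 (adjusted p = 0.999) in the eye, so this block changed no call of a member. Over all probes the replicate block took the calls from 17 to 5 and from 8 to 1, normexp took them to 10 and 4, and the array median took those of the eye to 4. In the mean of both tissues, Dbp passed the threshold with slide as a fixed block only (-0.30, adjusted p = 0.017, limma), in a fit whose SE can be too small for Dbp.

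Tissue differences moved with the scale. With the array median, 7 of 8 member probes were called instead of 4, Dbp reversed to -0.42, Nfil3 was at 0.12 (adjusted p = 0.23), and higher calls were 39.6% of all calls instead of 55.6%. Dbp was at -0.0091 with normexp, and Hlf at -0.13 with quantile normalization (adjusted p = 0.062). The cause was not tested.

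Of the 3 member pairs correlated, normexp and removal of slide means each left 1, the latter a different one (Dbp and Hlf in the hypothalamus). The array median gave 3, of which 1 was shared: Tef with Nfil3 (-0.064) and Dbp with Nfil3 (-0.059) were lost, and Dbp with Hlf (0.71) and Tef with Hlf (0.84) in the eye were added. The relation of Dbp between tissues was called in 0 cases with normexp (1 unadjusted) and 0 with slide means removed (0 unadjusted). The 6 clock relations became 11 with quantile normalization, 24 with the array median, 3 with normexp, 3 with Spearman's rho and 0 with slide means removed (2 unadjusted), where 64 or 256 arrangements limit how small a p can be. Dbp with Cry1 was at -0.58 with normexp (permutation, adjusted p = 0.23), and Tef with Per3 and Npas2 at adjusted p = 0.060 and 0.055 with quantile normalization (permutation). The values by scale of single correlations and of the gene lists were chosen after seeing the data. The cause was not tested.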
